A study of Schizosaccharomyces pombe with 15 samples.

Results

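Laboratory S. pombe carried 2401 short stretches of DNA where tagged Scr1 was enriched in molasses and where no Scr1 peak of the industrial strain Wilmar-P was listed. Scr1 is a zinc finger repressor of genes for the use of carbon sources, and its enrichment was measured by chromatin immunoprecipitation followed by sequencing (ChIP-seq) through a TAP tag and an antibody to Protein A. Regions were chosen by the peak lists themselves. Overlapping laboratory peaks (1 bp or more) were joined into regions, and a region with a peak of both replicates was kept when it overlapped no peak of the 4 Wilmar-P lists and was under 1000 bp wide. Of 3485 laboratory regions with a peak of both replicates, 2401 (68.9%) met this rule, 497 were laboratory-only but wider, and 587 overlapped a Wilmar-P peak. The presence, absence and width of peaks and their enrichment are therefore given as a description, with no test.

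The series lists 15 samples, of which the 6 Scr1 peak lists were used, 2 biological replicates in each of 3 groups. The laboratory strain is named as 972h- with Scr1-TAP, while its genotype is given as h+ with the alleles ura4-d18, leu1-32 and ade6-m216 beside scr1::TAP-KanMX6, so its labels disagree on the mating type. Wilmar-P, a strain isolated from a bioethanol plant that ferments sugar cane molasses, is given as h90 with scr1::TAP-KanMX6, and its labels list none of those auxotrophic alleles. All cells thus had the same tag on Scr1. By the study's methods, cells were first grown in medium with 3% glucose and then moved to new medium for a few hours. The new medium was molasses for the laboratory strain, and molasses or medium with 3% glucose for Wilmar-P. The study describes parts of the subtelomeres of chromosome II, the galactose gene cluster among them, as missing from the Wilmar genome, and a duplication on chromosome III as particular to Wilmar-P. No Wilmar-P peak can be called on sequence that Wilmar-P lacks. Strain background and auxotrophy cannot be told apart in these groups, and no list of the laboratory strain in glucose was analysed here.

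The 2 laboratory lists ran to 4239 and 4479 peaks. Wilmar-P had 961 and 1073 peaks in molasses, and 386 and 228 in glucose. The median fold enrichment of a peak over the background was 1.77 and 1.80 for the laboratory strain. For Wilmar-P it was 3.69 and 2.74 (molasses) and 3.52 and 5.46 (glucose), so each laboratory list was longer and had a lower median than any Wilmar-P list. These are the lists of single replicates, before the step across replicates (the irreproducible discovery rate) that the study also applied. The number of peaks in a list says nothing of how many pass that step. With that step, the study reports more Scr1 sites for Wilmar-P than for the laboratory strain in molasses, the reverse of these list lengths. It also reports only a small number of genes bound in the laboratory strain alone. Of the laboratory peaks, 57.7% and 54.6% lay in the narrow laboratory-only regions. The files hold peaks and no reads, so a place without a Wilmar-P peak may still have had reads in Wilmar-P, and the depth of each library is unknown. All 6 lists had peaks in the 1000 bp upstream of the annotated start of scr1 and of inv1, the invertase gene that Scr1 is known to repress. The best peak upstream of scr1 had a fold enrichment of 13.7 and 11.9 in the laboratory replicates, against 40.1 and 30.3 for Wilmar-P in molasses and 11.9 and 9.26 for Wilmar-P in glucose. Upstream of inv1 it was 6.45 and 5.98, 12.8 and 9.05, and 3.64 and 3.53 in the same order. Of the other known targets checked, ght5 had a peak in 5 of the 6 lists, all but laboratory replicate 2. At fbp1 a peak was listed in laboratory replicate 2 (1.38-fold) and in replicate 2 of Wilmar-P in molasses (1.66-fold), and in no other list.

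Carbon catabolite repressors of the Mig1 type, to which Scr1 belongs, bind short GC-rich boxes in front of genes. In fission yeast Scr1 shuts off genes such as inv1 and fbp1 when glucose is plentiful and leaves the nucleus when glucose is scarce. Sites of this kind are known from the sequence between genes. Each narrow laboratory-only region was therefore placed by its summit, the base with the highest signal in the strongest peak of replicate 1, with replicate 2 given beside it.

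The narrow regions lay inside genes. Of 2401 summits, 2314 (96.4%, 95% Wilson interval 95.6 to 97.1%) were in coding exons in replicate 1 and 2311 (96.3%) in replicate 2, while coding exons cover 56.9% of the 3 chromosomes. Both summits fell in coding exons of the same gene in 2304 regions. In 2183 of the 2314 coding regions (94.3%) the whole region lay between the start and the stop codon of its gene. Introns held 7 summits (0.292%) against 3.13% of the sequence, and stretches between genes held 6 (0.250%) against 10.3%. The 3′ UTRs held 9 summits, the 5′ UTRs 4, and annotated non-coding genes 61 (2.54%, against 13.0% of the sequence). Non-coding genes here are all annotated genes that are not protein-coding. They include RNA genes but also others, such as wtf6 and wtf22.

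Wide laboratory-only regions had 99.2% of their replicate 1 summits in coding exons, and the laboratory regions that overlapped a Wilmar-P peak had 58.1%. The narrow regions were in this respect close to the wide ones. The regions that overlapped a Wilmar-P peak had 28.1% of their summits in non-coding genes and 44 of 587 between genes. These differences between classes were not tested, because all regions came from the same 2 libraries. Intervals here and below cover counting error only.

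**Figure D1:**
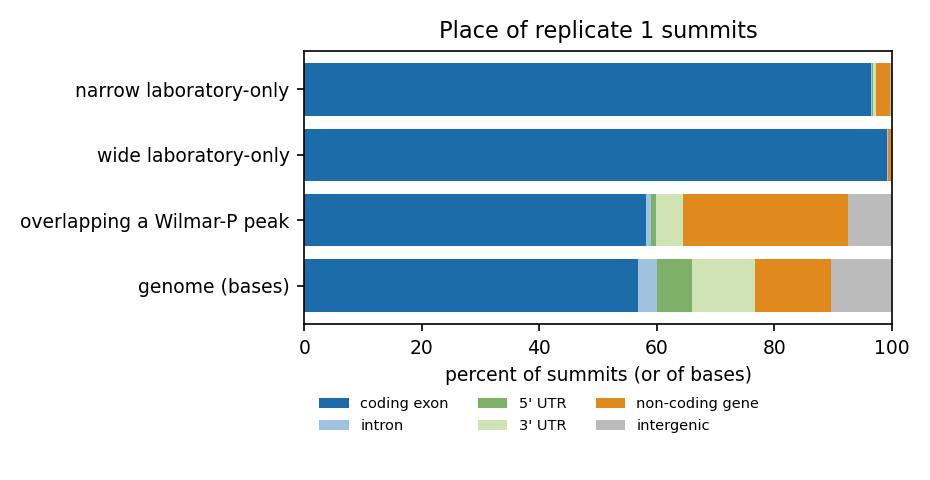
Percent of replicate 1 summits in coding exons, introns, UTRs, non-coding genes and intergenic sequence for the 3 classes of laboratory regions. The lowest bar gives the percent of genome bases. The narrow laboratory-only bar is 96.4% coding, the bar of regions overlapping a Wilmar-P peak 58.1% and the genome bar 56.9%.

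Most regions were weakly enriched. The fold enrichment ran from 1.23 to 10.7 in replicate 1 with a median of 1.74, and from 1.27 to 9.44 in replicate 2 with a median of 1.80. The median −log10 p was 8.36 and 9.40. In 2377 of the 2401 regions (99.0%) enrichment stayed under 2.5-fold in both replicates, and 9 regions reached 2.5-fold in both. Regions that overlapped a Wilmar-P peak had medians of 2.07 and 2.1 and reached 31.3 and 25.2. Widths ran from 179 to 999 bp with a median of 467 bp.

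Joining overlapping peaks into regions under 1000 bp keeps the summits of the replicates close by construction. They were a median of 48 bp apart and within 100 bp of each other in 1630 regions (67.9%), and 2311 regions (96.3%) were made of 1 peak of each replicate. Spearman's rho between the replicates over the 2401 regions was 0.475 for fold enrichment and 0.496 for −log10 p, and these points share 2 libraries. The series lists 1 input sample for the laboratory strain, and separate inputs for Wilmar-P in molasses and in glucose. Both laboratory replicates thus appear to rest on the same input, so their agreement is not independent of it. Wilmar-P peaks were a median of 5463 bp away, and 252 regions (10.5%) had a Wilmar-P peak within 1000 bp.

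The strongest regions were the exception to the coding rule. Of the 10 strongest by the mean −log10 p of both replicates, 1 had its summit in a coding exon, of the 20 strongest also 1, of the 50 strongest 23 and of the 100 strongest 66. Of the 9 regions that reached 2.5-fold in both replicates, 8 were outside coding exons.

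**Figure D2:**
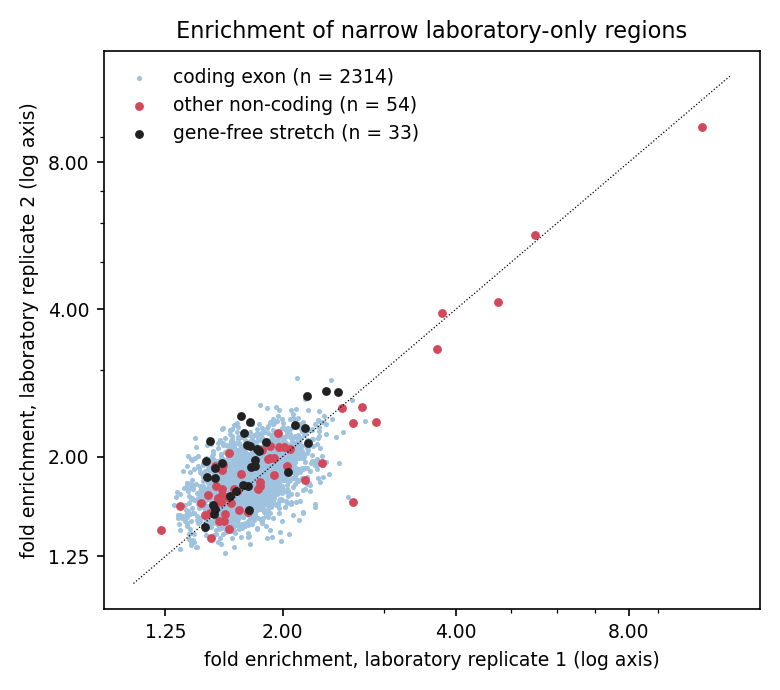
Fold enrichment of each of the 2401 narrow laboratory-only regions in laboratory replicate 1 (x axis) and replicate 2 (y axis), both on log axes, coloured by the place of the summit, with equality dotted. The 2314 coding regions form 1 cloud around 1.74 and 1.80, and the 5 points past 3-fold in both replicates are all non-coding.

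The sequences under 4 of the 5 strongest regions outside coding exons are shown, because these sites occur once in the genome and carry the highest enrichment after the strongest region, which lies in a UTR and is not printed. Each is 101 bp of the plus strand around the summit of replicate 1, from the RefSeq release ASM294v3 of the S. pombe genome, and each is named by the non-coding RNA gene at the summit. Capitals mark a Mig1-type motif, or the summit base where the window holds none.
SPNCRNA.6632 chrII:4487636-4487736: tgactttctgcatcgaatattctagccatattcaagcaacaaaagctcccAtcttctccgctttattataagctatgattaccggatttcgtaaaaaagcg
SPNCRNA.1035 chrI:4911052-4911152: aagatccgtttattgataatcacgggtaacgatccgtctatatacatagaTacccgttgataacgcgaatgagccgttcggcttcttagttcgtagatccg
SPNCRNA.1473 chrII:1888578-1888678: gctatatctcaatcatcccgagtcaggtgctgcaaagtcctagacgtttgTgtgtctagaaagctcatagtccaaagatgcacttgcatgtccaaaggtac
SPNCRNA.626 chrI:238669-238769: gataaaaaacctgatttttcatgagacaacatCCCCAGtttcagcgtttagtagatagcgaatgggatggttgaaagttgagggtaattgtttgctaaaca

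The strongest region of all lay at chrI:3994275-3994733, with its summit in the 3′ UTR of SPAPB15E9.06, a gene for an uncharacterized protein. It was enriched 10.7-fold in replicate 1 and 9.44-fold in replicate 2 and ranked 29 and 25 in the 2 lists by −log10 p. The nearest Wilmar-P peak was 723 bp away. It was the only narrow region among the 50 strongest peaks of either list.

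The next strongest, chrII:4487525-4487908, sat in SPNCRNA.6632, 268 bp upstream of the start codon of gal10, which encodes a bifunctional enzyme of galactose use. It was enriched 5.49-fold in replicate 1 and 5.66-fold in replicate 2, and the nearest Wilmar-P peak was 9378 bp away. The galactose cluster is part of the sequence described as missing from the Wilmar background, so at this region and at those in gal10 and tgd1 beside it the lack of a Wilmar-P peak says nothing of Scr1 binding. The coding sequence of gal10 held 3 weaker narrow regions, of which the strongest had 1.92-fold and 1.82-fold enrichment. The neighbouring chrII:4484746-4484967 was the only coding region among the 10 strongest, in tgd1, the gene for a nucleotide-sugar dehydratase, at 2.79-fold and 2.36-fold. The annotation has a transcript of gal10 over the same bases, so the 2 genes cannot be told apart there.

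The third lay at chrI:4910924-4911266 in SPNCRNA.1035, 227 bp upstream of the start codon of rpn502, a subunit of the regulatory particle of the proteasome. Its enrichment was 4.74-fold in replicate 1 and 4.14-fold in replicate 2. The nearest Wilmar-P peak was 6631 bp away.

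Next came chrII:1888519-1888768 in SPNCRNA.1473, with 3.79-fold and 3.93-fold enrichment. Its nearest start codon, that of the sulfate transporter gene sul1, was 1630 bp away. A Wilmar-P peak ended only 102 bp from this region. The region chrI:238572-238963 in SPNCRNA.626 and SPNCRNA.627, with 3.71-fold and 3.33-fold enrichment, had a Wilmar-P peak 325 bp away. It was the only one of the 10 strongest with a Mig1-type motif within 100 bp of its summit, CTGGGG on the minus strand.

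One narrow region touched the repressor's own gene. The region chrII:1752589-1752848 had its summit in the annotated 5′ UTR of scr1, at 1.55-fold and 1.48-fold enrichment, ranks 3312 and 4136. It was far weaker than the peaks upstream of the annotated start of scr1 that all lists had. A Wilmar-P peak lay 399 bp from this region.

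The remaining 4 of the 10 strongest regions stood in long stretches without protein-coding genes, where the centromeres of fission yeast lie. In these the central core is flanked by outer repeats, called dg and dh, which are transcribed into non-coding RNA and packed into heterochromatin. As a measure of these places, the longest stretch without a protein-coding gene was taken on each chromosome, a choice made after the data had been seen. These stretches were chrI:3751730-3790923, chrII:1596745-1648231 and chrIII:1064444-1142615.

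The stretch on chromosome I held 7 narrow regions, that on chromosome II held 8 and that on chromosome III held 18. Together the 33 regions were 37.9% of the 87 narrow regions whose summit lay outside coding exons, and 11 of the 20 strongest. The stretches held 17.9, 15.5 and 23 narrow regions per 100 kb. The whole chromosomes held 17.1, 19.6 and 22.7 per 100 kb, but mostly in coding exons, which held 96.4% of all summits. The other 54 narrow regions outside coding exons were spread over the rest of the 3 chromosomes. By definition the stretches hold no coding exons, so all their regions had to lie outside them. Whether the stretches were richer in narrow regions than other sequence outside coding exons was not tested. The 33 regions had a median of the mean −log10 p of 19.9, against 8.96 for regions in coding exons. Their median fold enrichment of 1.74 and 1.96 was near the 1.74 and 1.80 of coding regions.

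The 51 bp around the summit occurred more than once in the genome for all 33 of these regions, with 2 to 11 copies and a median of 10. This held for 32 of 2314 coding regions (1.38%). By these 51 bp, 30 of the 33 regions fell into 6 families, and 3 stood alone. Families were built by chaining. The 51 bp of each member lay in at least 1 other member of its family, but not always in all of them. The largest family held 11 regions on chromosomes I, II and III, and the second 6 regions on the same 3 chromosomes. Members of a family are therefore not separate observations, and how reads that match several copies were assigned was not tested.

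The windows of 5 of these regions show the copies. Each is 101 bp of the plus strand with the replicate 1 summit as a capital. The first 3 windows are the chromosome III members printed from the largest family, and the last 2 belong to the second family.
copy at chrIII:1119241-1119341: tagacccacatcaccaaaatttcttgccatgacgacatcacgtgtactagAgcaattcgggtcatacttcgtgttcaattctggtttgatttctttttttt
copy at chrIII:1125998-1126098: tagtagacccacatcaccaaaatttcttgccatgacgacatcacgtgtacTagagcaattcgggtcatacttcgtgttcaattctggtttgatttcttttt
copy at chrIII:1132765-1132865: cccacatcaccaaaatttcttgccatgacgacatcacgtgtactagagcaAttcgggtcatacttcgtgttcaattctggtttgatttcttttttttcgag
copy at chrII:1606641-1606741: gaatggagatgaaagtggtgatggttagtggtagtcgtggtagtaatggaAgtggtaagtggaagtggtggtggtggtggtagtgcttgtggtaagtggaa
copy at chrIII:1082126-1082226: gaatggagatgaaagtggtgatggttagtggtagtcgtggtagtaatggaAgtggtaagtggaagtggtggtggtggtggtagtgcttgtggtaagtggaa

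The 3 copies on chromosome III shared runs of 94 to 98 of 101 bases, with the summits 6757 and 6767 bp apart along the chromosome. The enrichment at these copies, in regions chrIII:1119102, chrIII:1125896 and chrIII:1132679, was 2.20, 2.37 and 2.5-fold in replicate 1 and 2.66, 2.72 and 2.71-fold in replicate 2. The windows on chromosomes II and III were identical over all 101 bases, and their regions, from chrII:1606541 and chrIII:1081928, had 1.69-fold and 1.5-fold enrichment in replicate 1 and 2.42-fold and 2.15-fold in replicate 2. Each of these 5 copies had the higher enrichment in replicate 2.

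Replicate 2 was the higher one in 28 of the 33 regions of the stretches, and in 1493 of all 2401. Wilmar-P in glucose had no peak in any of the 3 stretches. Wilmar-P in molasses had none and 3 peaks in the stretch on chromosome I, 7 and 9 on chromosome II and 6 and 17 on chromosome III in its 2 replicates. The number of narrow regions in the stretches therefore moved with 1 Wilmar-P list, and was 42 without replicate 2 of Wilmar-P in molasses against 33 with it.

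Outside these stretches, 54 narrow regions had summits in no coding exon. Their median enrichment was 1.72 and 1.78. The outer 100 kb of the left and right arms of chromosome II held 5 and 8 of the narrow regions outside coding exons, against 1 and 2 on chromosome I and 4 and none on chromosome III. The outer 100 kb of the arms of chromosome II held 41 narrow regions in all, 13 of them outside coding exons. By left and right arm, all narrow regions came to 22 and 19 on chromosome II. They came to 15 and 21 on chromosome I and 20 and 20 on chromosome III, so in total number the ends of chromosome II were much like the others. The longest span without a Wilmar-P peak in any list was 40606 bp in the left end and 43542 bp in the right, which includes the galactose cluster, and the spans held 10 and 13 narrow regions. Which of these lie in sequence that Wilmar-P lacks was not tested. Without the outer 100 kb of both arms, 2360 narrow regions were left, of which 96.9% were coding.

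Within genes, summits were more often past the middle of the coding sequence. Position was measured along the spliced coding sequence, from 0 at the start codon to 1 at the stop codon. The median was 0.566 in replicate 1 (n = 2314) and 0.567 in replicate 2 (n = 2311), and 58.5% and 57.0% of summits lay past 0.5. Between 0 and 0.1 there were 75 summits (3.24%) in replicate 1. Between 0.7 and 0.8 there were 320 (13.8%), and from 0.9 to the stop codon 151 (6.53%). Only 117 summits (5.06%) were within 200 bp of a start codon, and 272 (11.8%) were within 200 bp of a stop codon.

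**Figure D3:**
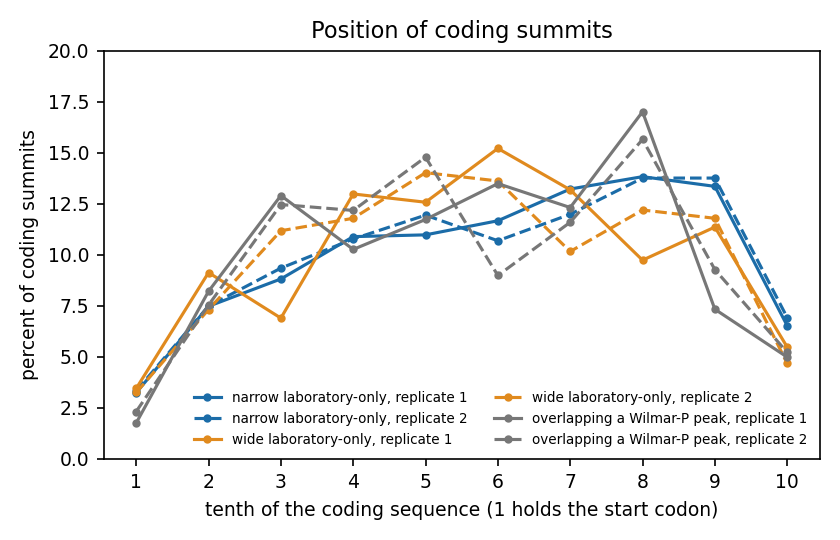
Percent of coding summits in 10 equal bins along the coding sequence, from the start codon to the stop codon, for the 3 classes of laboratory regions, with replicate 1 solid and replicate 2 dashed. The narrow laboratory-only line climbs from 3.24% in bin 1 to 13.8% in bin 8 and drops to 6.53% in bin 10.

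Wide laboratory-only regions had a median position of 0.539 and 0.529, and coding regions that overlapped a Wilmar-P peak 0.531 and 0.509. Summits past 0.5 were most frequent in short genes, with 65.2% in coding sequences under 1000 bp and 62.4% between 1000 and 2000 bp. It was 49.4% between 2000 and 3000 bp and 53.9% from 3000 bp on. The narrow regions thus did not share 1 position, and the share past 0.5 differed between classes of gene length.

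The regions were spread over 1798 of 5113 protein-coding genes (35.2%). Of these genes 1416 held 1 region, 286 held 2, 74 held 3, and 22 held 4 or more. The genes with a region were long, with a median coding length of 1497 bp against 936 bp for those without. Among genes with under 1000 bp of coding sequence 19.1% held a region, and among those with 3000 bp or more 63.5% did. Per kb of coding sequence the number was nearly flat, at 0.318, 0.343, 0.318 and 0.298 from the shortest to the longest class, with 0.323 over all genes. A count of genes with a region therefore follows gene length, and gene groups are compared per kb below.

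The genes with the most regions had coding sequences of 3297 to 14154 bp. Both gcn1, whose product helps the Gcn2 kinase sense amino acid shortage, and mdn1, which encodes the giant ATPase midasin of ribosome assembly, held 9. In gcn1 the enrichment ran from 1.44 to 2.1-fold in replicate 1 and from 1.62 to 2.33-fold in replicate 2, over positions 0.139 to 0.982. In mdn1 it ran from 1.54 to 2.19-fold and from 1.64 to 2.17-fold. Per kb this was 1.12 in gcn1 and 0.636 in mdn1.

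The lipid transfer protein gene vps1302 held 6 regions. The genes bud6 (an actin regulator), hrp3 (a chromatin remodeller of the CHD family), trm732 (tRNA methylation) and brr2 (a spliceosomal helicase) held 5 each. The genes tti1 (a co-chaperone of TOR-like kinases), msh6 (mismatch repair) and sea3 (a subunit of the SEA complex, which regulates TORC1) held 4 each. In none of these 10 genes did a laboratory region overlap a Wilmar-P peak, and only mdn1 also held a wide laboratory-only region. Both kinds were uncommon over all 5113 protein-coding genes, of which 316 held a region overlapping a Wilmar-P peak and 477 a wide one. The highest enrichment of any region in them was 2.38-fold, in tti1 in replicate 1.

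**Figure D4:**
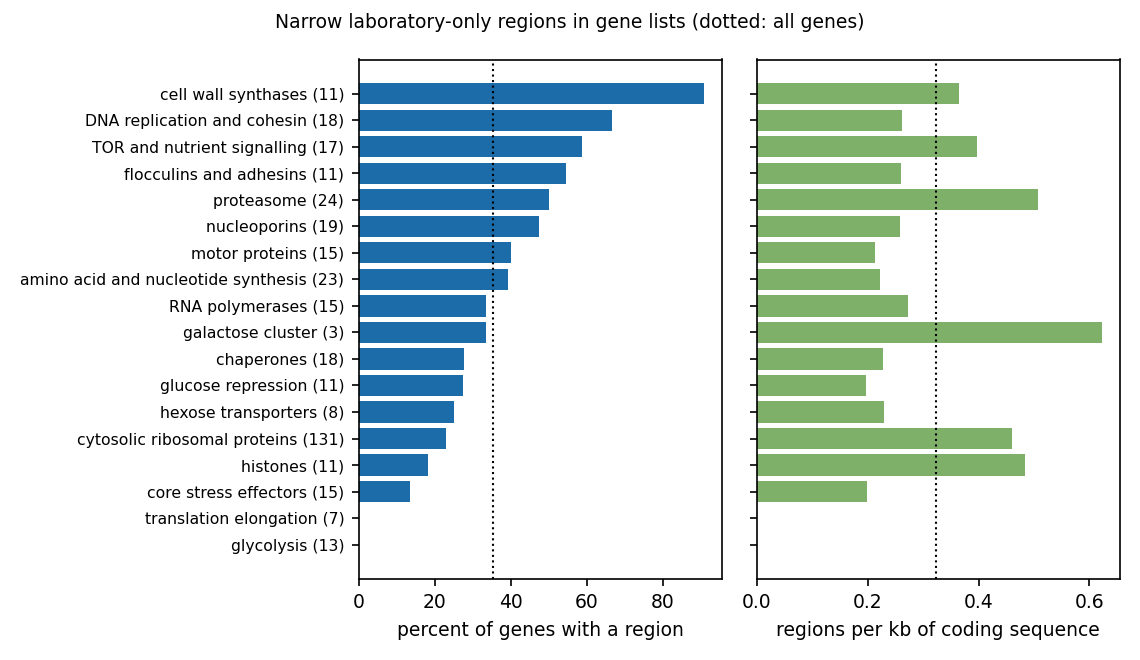
Narrow laboratory-only regions in 18 gene groups, with the number of annotated genes in brackets. The left panel gives the percent of genes with a region and the right panel the regions per kb of coding sequence, each with a dotted line for all protein-coding genes (35.2% and 0.323 per kb).

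Glycolytic genes and genes for elongation factors held no narrow region. None of 13 glycolytic genes held a narrow region, while 7 of them held a laboratory region that overlapped a Wilmar-P peak and 1 held a wide laboratory-only region. None of 7 genes for translation elongation factors held one, and all 7 held a region that overlapped a Wilmar-P peak. Over all 5113 protein-coding genes, 35.2% held a narrow region and 316 genes held one overlapping a Wilmar-P peak. By the rule, a region that overlaps a Wilmar-P peak cannot count as narrow, so the 2 counts are not independent. Of 131 genes for cytosolic ribosomal proteins 30 (22.9%) held a narrow region, none a wide one, and 59 a region overlapping a Wilmar-P peak. These genes are short, with a median coding length of 450 bp. Per kb of coding sequence their narrow regions came to 0.459, against 0.323 for all genes and 0.318 for genes with under 1000 bp. The strongest were in rps1201 (2.08-fold and 2.17-fold), rps901, rpl1502 and rps802. Many ribosomal protein genes have near-identical copies, and how reads were assigned between them was not tested.

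Of 11 genes of glucose repression 3 (27.3%) held a narrow region, or 0.196 per kb, against 35.2% and 0.323 per kb over all genes. A wide laboratory-only region was found in 9 of the 11, against 477 of 5113 over all genes. The strongest narrow region in mal1, a maltase gene, had 1.47-fold and 1.79-fold enrichment, that in agl1, an alpha-glucosidase gene, 2.07-fold and 1.86-fold, and that in rst2, which encodes an activator that opposes Scr1, 1.86-fold and 1.94-fold. Of 8 hexose transporter genes ght1 and ght3 (25%) held one, or 0.230 per kb, at 1.99-fold and 2.02-fold in ght1 and at up to 2.06-fold and 2.01-fold in ght3. The lists were chosen with earlier results of these data known.

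Of 24 proteasome genes 12 held a narrow region, or 0.506 per kb, led by pre10, a core particle subunit (2.14-fold and 2.12-fold), then rpt3, rpt5 and pts1. Of 11 cell wall synthases 10 held one, or 0.365 per kb, close to the level of all genes. The strongest were in ags1, an alpha-glucan synthase gene of the cell wall (1.86-fold and 2.11-fold), chs2, mok14 and bgs3. Of 17 genes of TOR and nutrient signalling 10 held one, or 0.397 per kb. The TORC1 kinase gene tor2 held 4, the strongest at 2.07-fold and 2.48-fold, and cyr1, which encodes adenylate cyclase, also held 4, while pka1 and wat1 held 1 each.

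Of 18 genes of DNA replication and cohesin 12 held a narrow region, which came to only 0.263 per kb. The strongest were in mcm3 (1.81-fold and 2.19-fold), mcm5, mcm6 and mcm4, and mcm2 and mcm7 also held one, a point singled out after the values were seen. The nucleoporin genes had 9 of 19 with a region and 0.258 per kb, led by nup155, nup211, npp106 and nup61. Enzymes of amino acid and nucleotide synthesis had 9 of 23 and 0.222 per kb, led by ade9, leu1, arg5 and his1. The motor protein genes klp6, myo52, myo2, klp2, tea2 and myo1 held regions, 6 of 15 genes and 0.213 per kb.

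Smaller groups had a few genes each. Flocculins and adhesins had 6 of 11, namely map4, mam3, gsf2, pfl7, pfl4 and pfl9. The RNA polymerase genes rpb3, nuc1, rpc2, rpa2 and rpc1 were 5 of 15, and the chaperone genes cct4, cct2, mas5, cct7 and cct8 were 5 of 18. The stress genes pcr1 and wis1 were 2 of 15, and the histone genes pht1 and hta1 were 2 of 11. Per kb of coding sequence the flocculins and adhesins had 0.260 regions, the RNA polymerase genes 0.272, the chaperone genes 0.228, the stress genes 0.198 and the histone genes 0.484. Over all protein-coding genes, 35.2% held a narrow region, at 0.323 per kb. Differences between groups were not tested.

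The chromosomes did not carry narrow regions in proportion to their length. Chromosome I held 953 (39.7%, 95% Wilson interval 37.8 to 41.7%) and makes up 44.4% of the sequence. Chromosome II held 891 (37.1%, interval 35.2 to 39.1%) and makes up 36.1%. Chromosome III held 557 (23.2%, interval 21.6 to 24.9%) and makes up 19.5%. Counted over coding sequence only, the numbers were 28.3 coding regions per 100 kb on chromosome I, 33.3 on chromosome II and 41.1 on chromosome III.

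The same order held in the other classes, at 4.69, 6.88 and 12.7 wide laboratory-only regions and 4.03, 4.72 and 6.82 regions overlapping a Wilmar-P peak per 100 kb of coding sequence. Median enrichment of narrow regions had this order too, at 1.71, 1.74 and 1.78 on chromosomes I, II and III in replicate 1. In replicate 2 it was 1.78, 1.80 and 1.84. In wide regions the order held in replicate 1 (1.86, 1.93 and 1.98), but in replicate 2 chromosome II was highest, at 2.01. In regions overlapping a Wilmar-P peak the order held in replicate 2 (2.06, 2.09 and 2.14). In replicate 1 chromosome I was highest there, with medians of 2.11, 2.05 and 2.06. The gradient over chromosomes in the number of regions was therefore not particular to the narrow class, while that in enrichment did not hold throughout the other classes. The coding share of summits was 98.0% on chromosome I, 96.6% on chromosome II and 93.2% on chromosome III, and 18 of the 38 regions outside coding exons on chromosome III lay in its gene-free stretch.

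**Figure D5:**
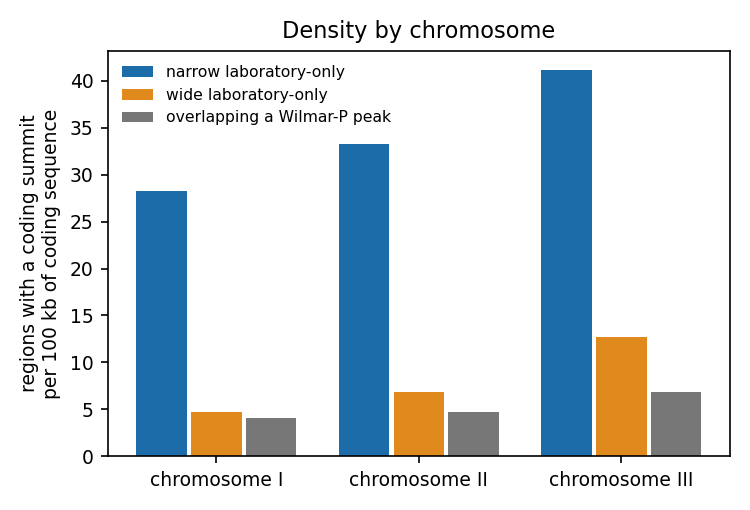
Regions with a coding summit per 100 kb of coding sequence on chromosomes I, II and III for the 3 classes of laboratory regions. Narrow laboratory-only bars stand at 28.3, 33.3 and 41.1, and both other classes are also highest on chromosome III.

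The coding summits were richer in GC than the genes they lay in. The sequence within 100 bp of the summit had a median GC content of 42.3%, against 38.8% in windows tiled over coding sequence and 36.3% over the whole genome. Coding summits of the other laboratory classes had more, at 43.3% for wide regions and 46.3% for regions overlapping a Wilmar-P peak. Compared with the coding sequence of its own gene, the window was richer in GC by a median of 2.22 percentage points in replicate 1 and 2.41 in replicate 2, and it was above its gene in 1904 of 2314 regions (82.3%) and in 83.5% of replicate 2 summits. Coding windows tiled over the genome had a median of -0.453 points against their gene, and 44.6% were above it. The figure was 1.91 points and 75.7% for wide regions, and 1.26 points and 67.4% for coding regions overlapping a Wilmar-P peak. The part that base composition plays in library preparation and sequencing was not tested.

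Windows from 4 of the 5 strongest coding regions, a choice made after their values were seen, and from 1 region of gcn1, a gene with the most regions, are examples of the sequence at coding summits. The windows are of the plus strand with the summit base as a capital.
mug135 chrIII:112770-112870: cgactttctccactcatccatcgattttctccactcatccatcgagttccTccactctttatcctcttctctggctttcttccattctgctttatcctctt
msi2 chrII:225783-225883: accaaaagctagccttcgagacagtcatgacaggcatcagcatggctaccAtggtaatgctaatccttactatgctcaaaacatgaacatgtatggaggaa
cbc1 chrI:3230238-3230338: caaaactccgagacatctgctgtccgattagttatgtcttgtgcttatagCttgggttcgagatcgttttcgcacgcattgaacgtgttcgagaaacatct
rrp45 chrIII:63629-63729: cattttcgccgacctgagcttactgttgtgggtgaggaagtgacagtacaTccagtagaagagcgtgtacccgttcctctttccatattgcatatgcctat
gcn1 chrI:2224681-2224781: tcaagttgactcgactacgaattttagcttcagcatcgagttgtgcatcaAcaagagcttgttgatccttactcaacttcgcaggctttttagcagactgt

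The region in mug135, a gene named for its expression in meiosis, had 2.11-fold and 2.89-fold enrichment, and that in msi2, which encodes a subunit of an mRNA cleavage factor, 2.43-fold and 2.86-fold. Enrichment was 2.64-fold and 2.62-fold in cbc1, for the nuclear cap-binding protein, and 2.35-fold and 2.36-fold in rrp45, for a subunit of the RNA exosome. Of the 5 strongest coding regions, which include that in tgd1, only that in cbc1 reached 2.5-fold in both replicates.

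Mig1-type motifs were about as frequent at the narrow regions as elsewhere. A motif was counted when CCGGGG, the variant CTGGGG, the variant GCGGGG or the variant GTGGGG occurred on either strand within 100 bp of the summit. This was so in 133 of 2401 regions (5.54%), against 5.38% of windows of the same length tiled over the genome and 6.41% of coding windows. Regions overlapping a Wilmar-P peak had a motif in 15.7% and wide regions in 6.44%. The letters AGCAGC, chosen with earlier results known, occurred in 15.6% of coding summit windows, against 12.4% of tiled coding windows. It was 20.7% for wide regions and 25.5% for coding regions overlapping a Wilmar-P peak.

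The width limit cut through a continuous range. The widest members were in svf1 (999 bp, 1.76-fold and 2.15-fold) and kgd2 (998 bp, 1.72-fold and 1.82-fold). The narrowest laboratory-only regions outside the limit were in dnt1 (1.77-fold and 1.99-fold) and ght5 (1.41-fold and 1.70-fold), both 1000 bp wide. The values of these few regions overlapped across the limit. Over the whole classes they differed, with median enrichment of 1.92-fold and 1.97-fold in wide laboratory-only regions. In narrow regions the medians were 1.74-fold and 1.80-fold.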

How the data were processed

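ChIP-seq of TAP-tagged Scr1 was analysed from 6 deposited peak lists, 2 per group, with groups and replicate numbers taken from the labels. The authors trimmed reads, aligned them to ASM294v2 with Bowtie2 2.3.1 and called peaks with MACS2 2.1.1 for each replicate against an input. In the deposited lists, fold enrichment is a ratio, significance is −log10 of the p-value and q-value, and the score and summit offset are those of the authors. The weakest peaks have q of about 0.01. No read numbers are given, so depth is unknown.

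Peaks were merged, classed and placed with Python 3.11.15, numpy 2.4.6, pandas 2.3.3 and scipy 1.17.1, after the steps had been tested on simulated lists. Sequence and annotation were those of RefSeq ASM294v3, a later release with the same lengths of chromosomes I, II and III (5579133, 4539804 and 2452883 bp). Peaks on the sequences named AB325691 and MTR were left out. A summit in several features counted as coding first, then UTR, intron and non-coding gene, which is any annotated gene that is not protein-coding. No test was run, because the rule used these peaks, regions share 2 libraries and are no replicates, and an exact permutation test of 2 lists against 2 cannot pass the usual threshold. Named regions were the 10 strongest, the 5 strongest outside coding exons, the 2 strongest of each chromosome and those beside the width limit. Named genes were the 10 with most regions and, in each list, all with a region or, above 8, the 4 strongest. Members and gene lists were chosen with earlier results of these data known. Of 18 lists, all listed genes found in the annotation were counted. Alternatives changed the width limit, the overlap, the q threshold, the lists used and the summit.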

Additional observations from a re-analysis of the deposited data

Results flagged for a closer look

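Peaks on the sequences named AB325691 and MTR were used in no comparison. On AB325691, 6 regions met the rule for narrow laboratory-only regions, and on MTR 3 did.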

How the results depend on the processing

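No paired analysis was possible because no result came from a test and replicate numbers of different strains are only names. With a width limit of 500 bp there were 1336 narrow regions, 94.9% of them coding and 21.2% on chromosome III, and 1075 genes with a region. With laboratory peaks of −log10 q of at least 5, 36.3% of regions were on chromosome I and 26.3% on chromosome III. With 1 laboratory or Wilmar-P list left out in turn, the number of regions ran from 2403 to 3484, the coding share from 96.1 to 96.7%, the median position from 0.553 to 0.567, and the shares of chromosomes I, II and III from 39.1 to 41.7%, from 36.4 to 37.3% and from 21.9 to 23.6%. Over all alternatives the coding share stayed between 94.9 and 96.9% and the median position between 0.553 and 0.574. The number of regions in the gene-free stretches ran from 23 to 42, a check added after seeing the data, as was leaving out the ends of chromosome II. Taken at the midpoint of the region, GC was 1.68 points above the gene, against 2.22 at the summit. The unknown depth of the libraries limits any statement on places without a Wilmar-P peak.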
